A study of Mus musculus with 75 samples.

Results

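The genes described here encode the machinery of oxidative phosphorylation in single cells of the mouse cochlea. Complexes I to IV of the inner mitochondrial membrane pass electrons from NADH and succinate to oxygen, complexes I, III and IV pump protons as they do so, and complex V, the ATP synthase, uses the proton gradient to make ATP. Complex II is built from nuclear genes alone, whereas complexes I, III, IV and V combine subunits made from nuclear genes in the cytosol with a few core subunits that mitochondrial DNA encodes. Outer hair cells (OHCs), the electromotile sensory cells, and supporting cells (SCs), the glia-like cells around them, differ in their work, and the nuclear and mitochondrial genes were therefore followed apart across the 5 cell groups.

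Members were chosen by symbol: names that start with Ndufa, Ndufb, Ndufc, Ndufs or Ndufv (complex I), Uqcr (III), Cox4 to Cox8 (IV) and Atp5 (V), Sdha to Sdhd (II), and the mitochondrial mt-Nd, mt-Co, mt-Cytb and mt-Atp genes. This gave 110 of the 55291 genes in the table, 97 of them nuclear and 13 mitochondrial, and 14 further symbols marked as pseudogenes by the ending -ps were left out. Of the nuclear members, 39 are named as subunits of complex I, 4 of II, 8 of III, 21 of IV and 17 of V. The remaining 8 nuclear members are Ndufaf genes, which encode assembly factors of complex I and not subunits. The annotation gives 4 members (Cox6c2, Ndufa11b, Ndufb4c and Ndufs6b) as processed pseudogenes although their symbols carry no such mark. The mitochondrial members are 7 genes of complex I, mt-Cytb of complex III, 3 genes of complex IV and 2 of complex V.

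The data were 75 single-cell libraries, each from 1 hand-picked Tdtomato+ cell amplified with a Smart-Seq kit. All mice carried a tamoxifen-inducible Cre that turned on the Tdtomato marker. The 17 WT_P30 OHCs came from Slc26a5 CreER/+; Ai9/+ mice at postnatal day 30, and the 16 WT_P60 SCs from Fgfr3-iCreER+; Ai9/+ mice at postnatal day 60, in which Fgfr3 drives Cre mostly in pillar and Deiters' cells. The other 42 cells were taken at postnatal day 60 from Fgfr3-Atoh1-Ikzf2-DTR mice, which are C57BL/6 like the others and carry Fgfr3-iCreER+ as Cre driver, the conditional transgene CAG-LSL-Atoh1+, the conditional knock-in Rosa26 CAG-LSL-Ikzf2/+ and the toxin receptor allele Slc26a5 DTR/+. In them tamoxifen switched on Atoh1 and Ikzf2, transcription factors of hair cells and of OHCs, in Fgfr3-expressing SCs, and diphtheria toxin killed the endogenous OHCs through a receptor placed in Slc26a5. By Myo7a and Prestin the study called 11 of these 42 OHC-like cells, with both markers, 16 nascent HCs, with Myo7a alone, and the other 15 SCs that were failing to become HCs (failing SCs here). How many mice stood behind a group is not named. Each test takes single cells as its units, and its p-value measures the spread between these cells.

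Total counts on genes lay between 4264780 and 22934062 per cell. Genes detected at 1 CPM (the counts-per-million scale) or more had medians of 4777 in WT_P30 OHCs, 6872 in WT_P60 SCs, 8488 in OHC-like cells, 8066 in nascent HCs and 6977 in failing SCs. Among the induced cells, 3 stood apart by few genes detected, OHC-like cell 4 (3348) and failing SCs 2 (4859) and 4 (4262), and results that rest on them are given with and without them. Reads of Slc26a5, which encodes Prestin, reached 1 CPM in 17 of 17 WT_P30 OHCs and 11 of 11 OHC-like cells, and in 0 of 16 WT_P60 SCs. The WT_P60 SCs held the SC markers Fgfr3 and Gjb2 in 16 of 16 cells, Sox10 in 15 and Sox2 in 13. Some markers listed for other cell types were also seen in wild-type cells. Otof, listed for inner hair cells, reached 1 CPM in 14 of 17 WT_P30 OHCs (median 427 CPM), and Slc17a8, listed with it, in 2. Snap25, listed for neurons, did so in 16 of 17 (median 175 CPM). Pecam1, listed for endothelium, did so in 9 of 16 WT_P60 SCs (median 19.2 CPM), and Cldn5, listed with it, in 1. Hemoglobin genes, markers of red blood cells, summed to 2687 CPM in 1 OHC-like cell and had a median of 0 in each group. The wild-type OHCs and SCs each formed a library run of their own, so run, age, Cre line and cell type cannot be told apart between them. The induced cells were spread over 5 other runs, A to E, and shared none with wild-type cells. In comparisons of induced with wild-type cells, run, diphtheria toxin, OHC loss and the induced factors therefore cannot be told apart. Against WT_P30 OHCs this also holds for age and Cre line. A run here is a block of consecutive library codes in the sample descriptions, which do not say what such a block shares.

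Promoters of nuclear members often carry sites for NRF1 and for ETS factors such as GABPA, regulators of respiratory genes. RefSeq promoter windows (GRCm38.p6, 250 bases before to 50 after a start) were found for 76 of the 97 nuclear members and searched on both strands for 2 motifs. The first was GCGC and TGCGC separated by any 1 base, or its reverse complement, which are the letters of the NRF1 site, and the second was CCGGAAG or CTTCCGG, the ETS core. At least one of them stood in a window of 44.7% of these members against 14.0% over 27025 genes. By complex the share was 34.4% of 32 genes for complex I, 100% of 3 for II, 60.0% of 5 for III, 21.4% of 14 for IV and 66.7% of 15 for V. The windows of 6 genes that the comparisons name follow, cut to the 120 bases before the start, 5′ to 3′. Capitals mark the matches. All lie on the minus strand: Ndufa5 at chr6:24527691-24527810 (the more upstream of 2 windows), Ndufa8 at chr2:36049339-36049458, Uqcr11 at chr10:80406822-80406941, Uqcrh at chr4:116075071-116075190, Cox6a1 at chr5:115348959-115349078 and Cox8b at chr7:140900447-140900566.
Ndufa5: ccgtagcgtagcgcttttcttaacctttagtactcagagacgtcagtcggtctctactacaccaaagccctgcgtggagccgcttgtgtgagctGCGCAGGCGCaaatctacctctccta
Ndufa8: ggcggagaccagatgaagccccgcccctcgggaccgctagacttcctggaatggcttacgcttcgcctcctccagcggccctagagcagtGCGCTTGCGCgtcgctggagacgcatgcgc
Uqcr11: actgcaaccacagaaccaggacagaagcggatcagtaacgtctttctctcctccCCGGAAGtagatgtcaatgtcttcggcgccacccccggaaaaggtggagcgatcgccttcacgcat
Uqcrh: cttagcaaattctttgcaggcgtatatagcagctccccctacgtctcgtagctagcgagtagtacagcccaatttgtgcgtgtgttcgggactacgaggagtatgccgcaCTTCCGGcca
Cox6a1: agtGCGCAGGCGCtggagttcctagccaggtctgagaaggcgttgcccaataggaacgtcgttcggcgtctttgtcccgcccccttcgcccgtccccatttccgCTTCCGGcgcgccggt
Cox8b: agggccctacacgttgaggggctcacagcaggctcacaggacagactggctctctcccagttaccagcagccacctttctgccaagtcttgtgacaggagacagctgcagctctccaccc
The Ndufa5 and Ndufa8 windows hold the NRF1 letters, Uqcr11 and Uqcrh the ETS core and Cox6a1 both, while the 120 bases before Cox8b, a gene of muscle and brown fat, hold neither. Among the members not printed, Atp5b and Cox5b, which the comparisons also name, had no match in their windows. A match is a run of letters and was not tested for binding. Among the members called higher in WT_P30 OHCs (edgeR, see the comparison of the wild-type groups), 13 of 26 had a match, and among the other tested members with a window 21 of 48 had one.

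The share of reads on mitochondrial members separated the wild-type cell types. As a percent of all gene counts, the 13 mitochondrial genes took 4.79 at the lowest, 6.73 at the median and 9.99 at the highest in WT_P30 OHCs, and 1.1, 1.46 and 1.97 in WT_P60 SCs. The groups did not overlap. OHC-like cells ran from 1.99 over a median of 5.24 to 17.8, nascent HCs from 1.21 over 4.21 to 7.2, and failing SCs from 0.00651 over 2.16 to 13.1. Every OHC-like cell (11 of 11) and 15 of 16 nascent HCs were above the highest WT_P60 SC, as were 8 of 15 failing SCs, and 7, 7 and 2 cells of these groups reached the lowest WT_P30 OHC.

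The 97 nuclear members showed a smaller separation. Their share of counts was 2.62, 2.86 and 4.37% (lowest, median and highest) in WT_P30 OHCs and 1.48, 1.79 and 1.93% in WT_P60 SCs, again without overlap. In the induced cells it was 0.861, 1.99 and 2.7% in OHC-like cells, 1.36, 1.86 and 2.32% in nascent HCs and 1.01, 1.69 and 2.03% in failing SCs. A single OHC-like cell and no nascent HC or failing SC reached the lowest WT_P30 OHC in this share. With TMM scaling, which sets cells on a common scale through genes of middling change, 3 OHC-like cells, 4 nascent HCs and 1 failing SC reached it. Above the highest WT_P60 SC were 6 of 11 OHC-like cells, 6 of 16 nascent HCs and 2 of 15 failing SCs by share. With TMM scaling these were 7, 7 and 6 cells.

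**Figure D1:**
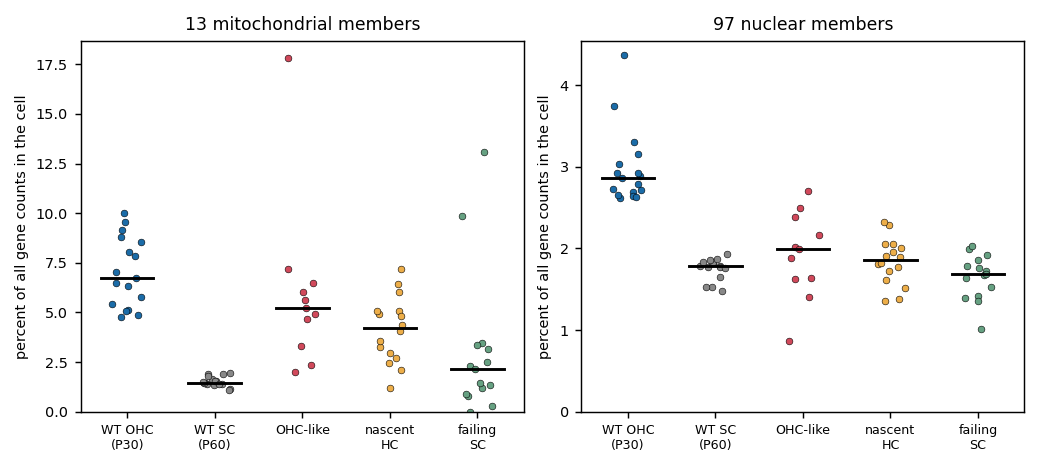
Share of all gene counts (percent, linear axes from 0) on the 13 mitochondrial members (left) and the 97 nuclear members (right), 1 point per cell, with the median of each group as a bar. On the left the OHC-like cells and nascent HCs (medians 5.24 and 4.21) spread up to the WT_P30 OHCs (6.73), and on the right their medians (1.99 and 1.86) lie near the WT_P60 SCs (1.79).

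A few cells set the ends of these ranges. OHC-like cell 4 gave the 17.8%, and without it the OHC-like share ran from 1.99 to 7.18 with a median of 5.07. Failing SCs 2 and 4 held 9.87 and 13.1%, and without them the failing SCs ran from 0.00651 to 3.46 with a median of 1.42, which is below the WT_P60 SC median. Failing SC 6 had almost no mitochondrial reads, 56.9 TMM-scaled CPM in all 13 genes, and failing SC 10 had 0.298% of its counts there. The nuclear share was 0.861% in OHC-like cell 4, 1.01% in failing SC 2, 1.39% in failing SC 6 and 1.36% in failing SC 10, while failing SC 4 had 1.67%, near the median of its group (1.69%). The number of genes detected was 5676 in failing SC 6 and 6374 in failing SC 10, and its part in these shares was not tested.

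Within library runs the induced groups could be compared in part. In run B the median mitochondrial share was 5.24% in 5 OHC-like cells and 5.46% in 6 nascent HCs, in run D 6.48% in 3 and 4.95% in 4, and in run E 3.81% in 2 and 2.7% in 4. Failing SCs were in run C (10 cells, 1.74%), run A (4 cells, 6.08%) and run E (1 cell, 1.42%), where OHC-like cells numbered 0, 1 and 2. In run A the 1 OHC-like cell had 2.37%, below the median of the 4 failing SCs. That median rests on failing SCs 2 and 4 (9.87 and 13.1%), which had few genes detected, while failing SCs 1 and 3 had 2.29 and 1.21%. In run E the OHC-like median of 3.81% was above the 1 failing SC. The order thus differed between the runs they shared when failing SCs 2 and 4 were kept, and not without them.

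**Figure D2:**
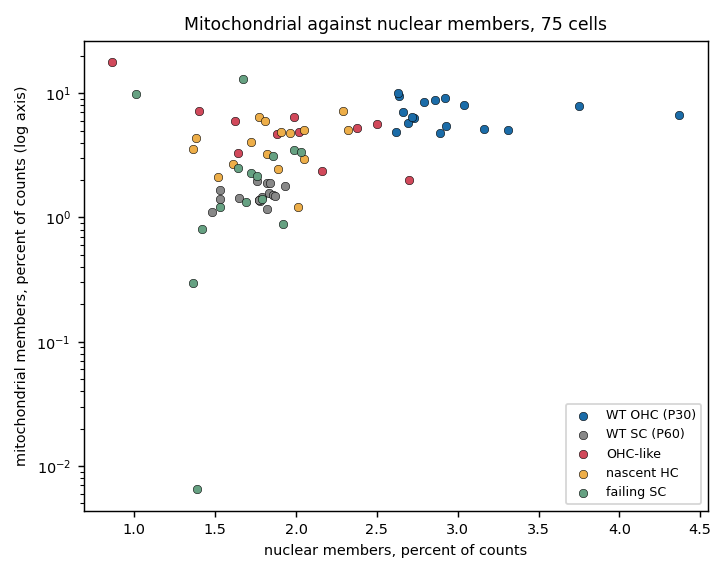
Percent of counts on nuclear members (x, linear) against percent on mitochondrial members (y, log axis) for the 75 cells, colored by group. The WT_P30 OHCs form a separate cloud at the upper right, most OHC-like cells and nascent HCs lie above the WT_P60 SCs at similar nuclear shares, and 1 failing SC lies at 0.00651% mitochondrial reads.

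Nuclear and mitochondrial sums moved together across the cells of some groups and not of others. As a description over cells, with reads of 1 library on both axes, Spearman's rho between the summed CPM was 0.59 in 16 WT_P60 SCs, 0.60 in 16 nascent HCs, 0.51 in 15 failing SCs, 0.03 in 17 WT_P30 OHCs and -0.47 in 11 OHC-like cells. The number of genes detected went with the nuclear sum in OHC-like cells (rho 0.71) and hardly so in failing SCs (0.18). Without OHC-like cell 4 the first rho was -0.30 and the second 0.61 in the other 10 cells, and without failing SCs 2 and 4 they were 0.61 and 0.31 in the other 13, settings chosen after the data had been seen.

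WT_P30 OHCs were compared with WT_P60 SCs to set the ends between which the induced cells can be read. Genes were tested with edgeR's quasi-likelihood F-test on all 5 groups and called at a Benjamini-Hochberg adjusted p under 0.05, and levels are TMM-scaled CPM unless stated otherwise. Of 88 nuclear members that passed the filter on low counts, 26 were called higher in WT_P30 OHCs and 1 lower. Over all 11443 genes tested, 8.92% were called higher and 16.1% lower. The log2 fold change was positive for 71 of the 88, with a median of 0.73, beside a median of -0.16 over all genes. The latter moved to -0.05 when cells were scaled by library size and to -0.29 with DESeq2 size factors, and the member median to 0.86 and 0.60.

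Complex IV, the cytochrome c oxidase that reduces oxygen, had 8 of 14 tested nuclear subunits higher and 1 lower, the largest share called among the 5 complexes. Its summed level was 4366, 6383 and 9915 CPM (lowest, median and highest) in WT_P30 OHCs and 2950, 3513 and 4132 CPM in WT_P60 SCs, with no overlap. Cox8a, the small subunit VIIIa that is found in most tissues (chromosome 19, 7215153 to 7217616), lay at 953, 1549 and 2110 CPM in OHCs and 280, 456 and 690 CPM in SCs. Every OHC was above every SC. The log2 fold change was 1.71 ± 0.37 (SE, edgeR adjusted p = 0.000148). Cox5b, a nuclear subunit on the matrix side, rose by 1.93 ± 0.42 on the log2 scale (edgeR adjusted p = 0.000145), from 64.8, 148 and 244 CPM in SCs to 178, 516 and 1712 CPM in OHCs, with overlap.

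Cox6a1, Cox7a2 and Cox6b1, the common forms of 3 other isoform sets, were also higher in OHCs, and Cox8b, seen in 2 of 17 OHCs, was called with them. Cox6a1 had 308, 779 and 1079 CPM in OHCs and 191, 349 and 457 CPM in SCs, and rose by 1.15 ± 0.28 on the log2 scale. Cox7a2 had 137, 454 and 1028 CPM against 86.9, 181 and 237 CPM, a log2 fold change of 1.33 ± 0.37. Both passed the edgeR test (adjusted p = 0.00058 and 0.00326), and in both the ranges overlapped. Cox6b1 was near the threshold (0.89 ± 0.35, edgeR adjusted p = 0.0472) and was not called in 5 of the alternatives, among them DESeq2 size factors (0.0785).

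Cox7a2l, a relative of subunit VIIa that acts in supercomplexes, had medians of 78.7 CPM in OHCs and 101 CPM in SCs. Cox4i1, the main isoform of subunit IV, and Ndufa4, first named as a complex I subunit and now placed in complex IV, had medians of 749 and 613 CPM in OHCs and 587 and 484 CPM in SCs. None of these 3 was called. Cox7a1, the heart and skeletal muscle isoform, was the 1 member called lower (log2 fold change -5.28 ± 1.80, edgeR adjusted p = 0.0196). It rests on few cells, being detected at 1 CPM or more in 6 of 16 SCs, up to 78.0 CPM, and in 1 of 17 OHCs at 4.62 CPM, and it was not called with DESeq2 (0.0772) or with the number of genes detected as a covariate (0.702).

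The remaining alternative isoforms of complex IV were seen in few or no wild-type cells. Cox4i2, the lung isoform, was detected in 0 of 17 OHCs and 3 of 16 SCs, Cox6a2 of heart and muscle and Cox6b2 of testis in 0 of 17 and 0 of 16, and Cox8c of testis in 1 of 17 and 0 of 16. These are counts of cells with reads, not limits on expression. Cox7b2 and Ndufa4l2 had no count in any of the 75 cells.

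Complex V had 7 of 17 tested subunits higher in OHCs. Its summed level was 6759, 7839 and 11437 CPM in OHCs and 3863, 5520 and 6415 CPM in SCs, without overlap. Atp5md, a small subunit of the membrane part that stabilizes ATP synthase dimers (chromosome 19, 47083464 to 47090647), had 316, 462 and 806 CPM in OHCs and 67.4, 153 and 239 CPM in SCs. It rose by 1.57 ± 0.35 on the log2 scale with no overlap (edgeR adjusted p = 0.00022). Its exons overlap Taf5 on the other strand, whose reads cannot be told apart where counting ignored strand. Atp5k, another small membrane subunit, had no overlap either (94.9 to 235 CPM against 20.4 to 87.0 CPM), and Atp5b, the catalytic beta subunit, rose by 0.94 ± 0.23 (edgeR adjusted p = 0.000552). The 3 genes for subunit c, the ring that turns in the membrane (Atp5g1, Atp5g2 and Atp5g3), were not called, with medians of 111, 184 and 328 CPM in OHCs and 179, 179 and 225 CPM in SCs.

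Atp5a1 and Atp5d of the same complex were not called, unlike Atp5b. Atp5a1, the alpha subunit, had medians of 632 CPM in OHCs and 695 CPM in SCs, and Atp5d, the delta subunit, 217 and 254 CPM.

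Complex I had 8 of 37 tested subunits higher, and none of the 8 Ndufaf assembly factors was called (smallest adjusted p = 0.0963). The summed level of complex I was 6383, 7764 and 11116 CPM in OHCs and 4063, 5282 and 5851 CPM in SCs, without overlap. Ndufa5, an accessory subunit of the hydrophilic arm (chromosome 6, 24518666 to 24528013), led with 236, 525 and 771 CPM in OHCs against 58.9, 114 and 204 CPM in SCs. The groups were apart in every cell, and the log2 fold change was 2.06 ± 0.40 (edgeR adjusted p = 3.03e-05). The other 7 were Ndufa7, Ndufa8, Ndufb4, Ndufb5, Ndufc1, Ndufv2 and Ndufv3, with log2 fold changes between 0.79 and 1.77. Ndufb4 shares 35.2% of its 75-base windows with the pseudogene Ndufb4c and another copy, so its reads may be split.

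Complex III, which passes electrons to cytochrome c, had 3 of 8 subunits higher, Uqcr11, Uqcrh and Uqcr10. Uqcr11 had 232, 573 and 1081 CPM in OHCs and 164, 276 and 434 CPM in SCs (log2 fold change 1.16 ± 0.29, edgeR adjusted p = 0.001), with overlap. In complex II, the succinate dehydrogenase that also serves the citric acid cycle, 0 of 4 genes were called (smallest adjusted p = 0.221), and its summed level was 393, 813 and 1695 CPM in OHCs and 509, 876 and 1668 CPM in SCs. Sdha, the flavoprotein, had a lower median in OHCs (284 against 465 CPM) and Sdhb, the iron-sulfur subunit, a higher one (307 against 193 CPM), and neither difference passed the test. Sdhc and Sdhd, the membrane anchors, had medians of 83.2 and 132 CPM in OHCs and 120 and 111 CPM in SCs. No complex II gene was called in any of the other 6 comparisons either (smallest adjusted p = 0.374).

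In 4 nuclear members the groups did not overlap (Ndufa5, Cox8a, Atp5k and Atp5md), and 1.08% of all genes tested had such a separation with OHCs higher.

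**Figure D3:**
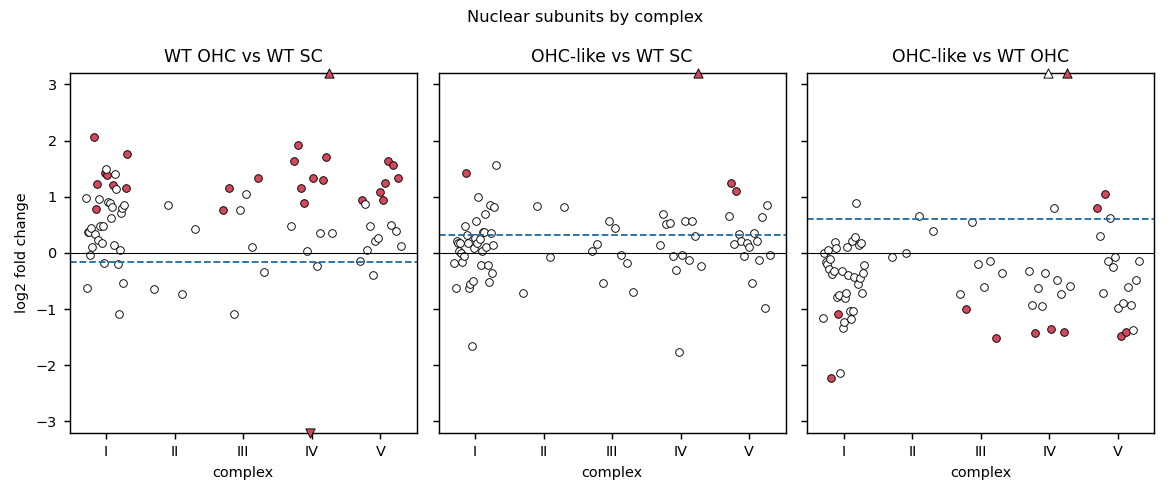
Log2 fold changes (y) of the tested nuclear subunits by complex (x) in 3 comparisons, 1 point per gene, filled where the edgeR adjusted p is under 0.05. Triangles at the edges are genes beyond the axis (Cox7a1 and Cox8b), the dashed line is the median of all 11443 genes, and most points lie above it on the left (median 0.73 against -0.16) and below it on the right (-0.36 against 0.61).

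All 11 mitochondrial members that passed the filter were called higher in WT_P30 OHCs, with a median log2 fold change of 2.21. In 10 of the 11 the groups did not overlap, the exception being mt-Atp6. mt-Cytb, the cytochrome b of complex III, had 8748, 17935 and 25221 CPM in OHCs and 2209, 3002 and 4666 CPM in SCs. Its log2 fold change was 2.46 ± 0.40 (edgeR adjusted p = 1.13e-06). mt-Co1, the catalytic subunit of complex IV, had 7737, 13094 and 21084 CPM in OHCs and 2800, 4217 and 6047 CPM in SCs, and rose by 1.60 ± 0.39 (edgeR adjusted p = 0.000767).

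The complex I genes of mitochondrial DNA, which form the proton-pumping membrane arm, were also well apart. mt-Nd1 lay at 6179, 11679 and 19680 CPM in OHCs and at 1899, 3380 and 4779 CPM in SCs, a log2 fold change of 1.90 ± 0.39. mt-Nd4 rose by 2.46 ± 0.39, from 795, 1255 and 1975 CPM to 4399, 7676 and 10970 CPM. mt-Nd2 (2.20), mt-Nd5 (2.32) and mt-Nd6 (2.55) lay in the same range of log2 fold change. With the number of genes detected as a covariate, mt-Co1 and mt-Atp6 were not called (edgeR adjusted p = 0.258 and 0.108).

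Per length, the mitochondrial members fell into 2 tiers in every group. In TPM (the transcripts-per-million scale, from reads divided by exon length), the medians in WT_P30 OHCs were 33767 for mt-Cytb, 28797 for mt-Nd1, 18896 for mt-Co1, 15820 for mt-Nd2 and 11998 for mt-Nd4. They were 249 for mt-Co2, 294 for mt-Co3, 269 for mt-Atp6 and 611 for mt-Nd3. mt-Nd4l (4.91) and mt-Atp8 (3.58) were lower still and did not pass the filter. The lower tier, without mt-Atp8, is the set whose sequence is nearly all repeated in nuclear copies: 97.8% of the 75-base windows of mt-Nd3, 98.7% of mt-Nd4l, 99.5% of mt-Co2 and mt-Atp6 and 99.9% of mt-Co3 occur in another gene of the annotation, against 0% for mt-Cytb and mt-Nd1. How reads with several matches were counted is not stated, so the levels of these 5 genes are uncertain.

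For mt-Nd3 (mitochondrial genome, 9459 to 9806) the copy decided the size of the difference. As deposited, it had 54.8, 106 and 162 CPM in OHCs and 0.565, 1.66 and 3.98 CPM in SCs, a log2 fold change of 5.85 ± 0.70 (edgeR adjusted p = 1.99e-10). The nuclear copy Gm28438 held a median of 95.5% of the reads of the pair in SCs (92.2 to 97.4) but 18.2% in OHCs (5.79 to 57.7). It held 19.7% in OHC-like cells, 20.9% in nascent HCs and 12.1% in failing SCs. With the reads of both added, the levels were 66.5, 142 and 210 CPM in OHCs and 13.4, 31.2 and 86.9 CPM in SCs, and the log2 fold change was 1.76 ± 0.54 (edgeR adjusted p = 0.0084). Why the reads of the pair were divided otherwise in WT_P60 SCs was not tested, and those cells were a run of their own.

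For mt-Co2 and mt-Co3 the sum with the copy gave larger differences, 2.73 ± 0.55 in place of 2.21 ± 0.53 and 3.07 ± 0.54 in place of 2.14 ± 0.51. For mt-Atp6 it gave 2.26 ± 0.64 in place of 2.03 ± 0.53. All 3 were called under both ways of counting. The alternative was chosen after the data had been seen.

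OHC-like cells were compared with WT_P60 SCs, the cell type from which they came. Of the 11 tested mitochondrial members 10 were called higher, where 10.2% of all genes tested were higher and 3.24% lower, and the median log2 fold change was 2.26 beside 0.32 over all genes. Without OHC-like cell 4 these medians were 1.79 and 0.31. mt-Nd6, the complex I gene on the light strand, had 480, 956 and 6386 CPM in OHC-like cells and 72.6, 151 and 261 CPM in SCs. No cell overlapped, and it rose by 3.32 ± 0.48 (edgeR adjusted p = 1.14e-07). mt-Nd5, whose end overlaps mt-Nd6 on the other strand, rose by 2.81 ± 0.43 and mt-Co1 by 1.88 ± 0.43, both without overlap, and 0.83% of all genes tested were apart in this direction.

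mt-Cytb had 4597, 11048 and 50543 CPM in OHC-like cells, and rose by 2.26 ± 0.43 over SCs (edgeR adjusted p = 3.78e-05), with the lowest cell just inside the range of the SCs. mt-Atp6 was not called (1.31 ± 0.56, edgeR adjusted p = 0.128). Without OHC-like cell 4, mt-Co2 and mt-Co3 were not called either (adjusted p = 0.0641 and 0.139). With that cell kept and the nuclear copies added, they rose by 3.79 ± 0.60 and 4.05 ± 0.59. The highest OHC-like cell held 3175 and 6882 CPM of these sums, beside medians of 168 and 247 CPM. The fit with copies was not repeated without OHC-like cell 4. For mt-Nd3 the change was 5.90 ± 0.72 as deposited and 1.89 ± 0.58 with the copy added (edgeR adjusted p = 0.0159).

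**Figure D4:**
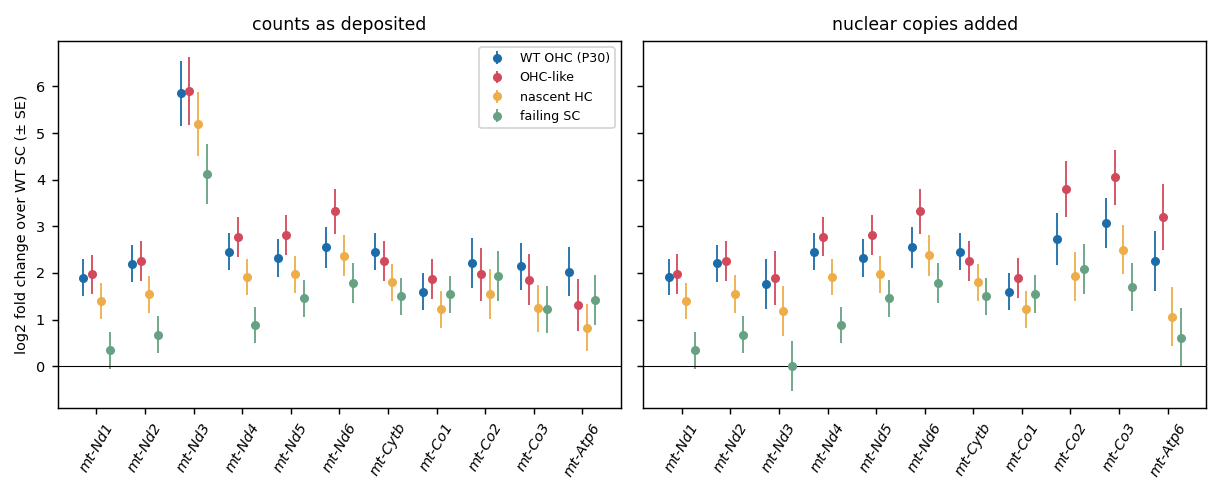
Log2 fold change over WT_P60 SCs (y, with SE bars) of the 11 tested mitochondrial members (x) in the other 4 groups, with counts as deposited (left) and with the reads of 7 nuclear copies added (right). On the left mt-Nd3 stands at 5.85 in WT_P30 OHCs and 4.12 in failing SCs, and on the right at 1.76 and 0.00.

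The mitochondrial reads per nuclear read shifted accordingly. The ratio of the summed CPM was 0.635, 0.841 and 1.12 (lowest, median and highest) in WT_P60 SCs and 1.54, 2.31 and 3.79 in WT_P30 OHCs, with no overlap. OHC-like cells ran from 0.739 over 2.42 to 20.7 and failing SCs from 0.00468 over 1.23 to 9.79, both reaching into both wild-type ranges. Nascent HCs ran from 0.603 over 2.41 to 3.63. Nascent HC 3 gave the 0.603, below the lowest SC, and every other nascent HC lay above the highest SC, at 1.3 or more.

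The nuclear members rose less in OHC-like cells. Their summed level had a median of 21683 CPM beside 17515 CPM in WT_P60 SCs, and 7 of 11 cells lay above the highest SC. Few of the genes were called. Over WT_P60 SCs 4 of 88 were called higher and 0 lower, with 7 higher and 0 lower at an unadjusted p under 0.05 and 5 higher and 3 lower by DESeq2. The median log2 fold change was 0.18 beside 0.32 over all genes, and it was 0.08 with scaling by library size and -0.03 with DESeq2 size factors. Gene by gene, no direction can therefore be given for the set. The 4 were Atp5b, Atp5d, Ndufa8 and Cox8b. By complex, the median summed level of OHC-like cells was 6197 CPM for complex I, 988 CPM for II, 1897 CPM for III and 3985 CPM for IV, beside 5282, 876, 1794 and 3513 CPM in SCs, and for complex V it was 7963 CPM beside 5520 CPM.

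Atp5b (chromosome 10, 128083273 to 128090391) was the clearest. It lay at 1224, 1963 and 3246 CPM in OHC-like cells and 591, 852 and 1276 CPM in SCs. The ranges overlapped by a little, and the log2 fold change was 1.25 ± 0.25 (edgeR adjusted p = 9.25e-05). Ndufa8, a complex I subunit of the intermembrane space that carries twin cysteine motifs (chromosome 2, 36036326 to 36049406), had 83.7, 281 and 645 CPM against 59.9, 121 and 205 CPM and rose by 1.43 ± 0.37 (edgeR adjusted p = 0.00316). It was not called with the number of genes detected as a covariate (0.0976). Atp5d, the delta subunit of the central stalk of complex V, had 219, 526 and 1545 CPM against 105, 254 and 380 CPM (1.10 ± 0.35, edgeR adjusted p = 0.019), and Cbarp lies across it on the other strand.

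Cox8b, the isoform of subunit VIII known from heart, muscle and brown fat (chromosome 7, 140898945 to 140900446), had 0 counts in each of 16 WT_P60 SCs. It was detected in 7 of 11 OHC-like cells, from 0 over a median of 10.4 to 396 CPM, and in 5 of 16 nascent HCs, 2 of 17 WT_P30 OHCs and 1 of 15 failing SCs. Against a floor of 3 counts per library, the mean of the OHC-like cells (58.4 CPM) was at least 139-fold higher than in SCs, and at least 58.9-fold without OHC-like cell 2, which held the 396 CPM. The mean of the nascent HCs (88.4 CPM) was at least 211-fold higher, and at least 22.7-fold without nascent HC 13, which held 1272 CPM. The same cell held 625 CPM of Cox4i2, another alternative isoform. Cox8b was called higher in both groups (edgeR adjusted p = 0.000117 and 6.16e-05), and also without these cells, 2 settings that were chosen after the data had been seen.

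**Figure D5:**
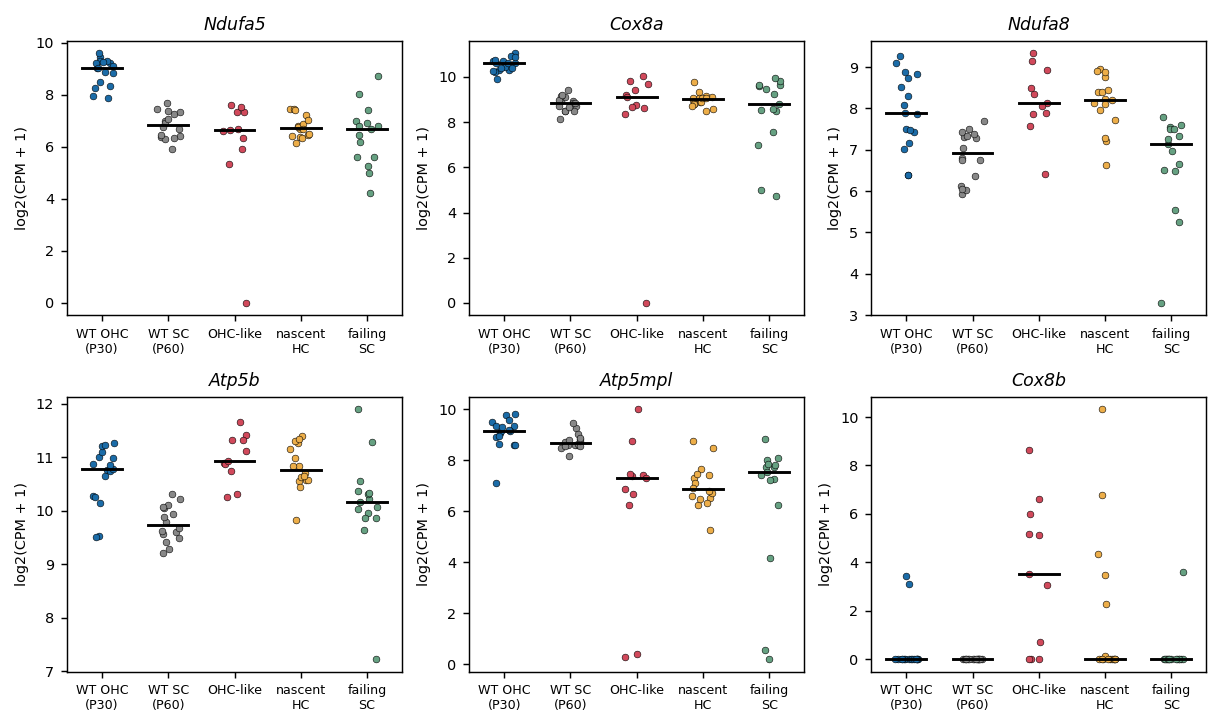
Levels of 6 nuclear members in single cells, as log2(CPM + 1) on the y axis, by group, with the group median as a bar. Ndufa5 and Cox8a are high in WT_P30 OHCs alone (medians 525 and 1549 CPM). Ndufa8 and Atp5b are raised over WT_P60 SCs in OHC-like cells, nascent HCs and also WT_P30 OHCs. Atp5mpl is lower in many induced cells, and Cox8b is at 0 in the 16 WT_P60 SCs.

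Nascent HCs, which had Myo7a but little Prestin, gave a like picture over WT_P60 SCs. Of the mitochondrial members 9 of 11 were called, with a median log2 fold change of 1.55, and of the nuclear members 3 were higher and 1 lower. Over all genes tested 10.4% were higher and 3.42% lower. The nuclear median was 0.10 beside 0.34 over all genes, and it was -0.00 with scaling by library size and -0.12 with DESeq2 size factors. mt-Cytb had 2501, 9866 and 18939 CPM and rose by 1.80 ± 0.40 (edgeR adjusted p = 0.000337). mt-Co2 was the 1 gene beside mt-Nd3 whose nascent HCs were all above the SCs (0.586% of all genes tested), and mt-Nd3 was not called once its copy was added (1.18 ± 0.54, adjusted p = 0.163).

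Among the nuclear members Atp5b, Ndufa8 and Cox8b were higher in nascent HCs. Atp5b had 906, 1746 and 2698 CPM (log2 fold change over SCs 1.07 ± 0.23, edgeR adjusted p = 0.000226) and Ndufa8 98.8, 295 and 496 CPM (1.30 ± 0.35, edgeR adjusted p = 0.00334). With the number of genes detected as a covariate Ndufa8 was not called (0.95, edgeR adjusted p = 0.085). Atp5mpl, a small proteolipid of the ATP synthase (chromosome 12, 111961375 to 111966977), was lower. It had 36.9, 115 and 431 CPM in nascent HCs and 285, 406 and 700 CPM in SCs, and fell by 1.52 on the log2 scale (SE 0.51, edgeR adjusted p = 0.0321). Its median was 571 CPM in WT_P30 OHCs, 156 CPM in OHC-like cells and 185 CPM in failing SCs, where the difference from SCs was not called.

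Failing SCs had 6 of 11 mitochondrial members called higher than in WT_P60 SCs, and the median log2 fold change was 1.46 beside 0.25 over all genes. Of the nuclear members 1 was called higher (Cox8b, seen in 1 cell) and 0 lower, with 6 and 3 at an unadjusted p under 0.05 and 3 and 3 by DESeq2, where 7.54% of all genes tested were higher and 2.32% lower. The called mitochondrial genes were mt-Cytb, mt-Co1, mt-Co2, mt-Nd3, mt-Nd5 and mt-Nd6. mt-Cytb ran from 1.63 over 4484 to 39280 CPM. Without the 3 cells with few genes detected, a setting chosen after the data had been seen, 1 of 11 was called: mt-Cytb fell to a log2 fold change of 0.50 (edgeR adjusted p = 0.56), mt-Co1 to 0.54 (0.496), mt-Nd5 to 0.36 (0.748), mt-Co2 to 1.31 (0.109) and mt-Nd6 to 1.10 (0.058). The gene still called was mt-Nd3, whose change with the copy added was 0.00 ± 0.54 (adjusted p = 1.0). In failing SC 6, 87.7% of the few mitochondrial reads lay on mt-Nd5.

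OHC-like cells were then set against WT_P30 OHCs, the cells they are meant to replace. Of the mitochondrial members 0 of 11 were called by edgeR, 0 had an unadjusted p under 0.05, and DESeq2 called 1 lower. The median log2 fold change of these 11 was 0.06 and turned to -0.31 with scaling by library size, and also to -0.31 without OHC-like cell 4. Of the nuclear members 9 were called lower and 3 higher, where over all genes 2.49% were lower and 16.7% higher. The median log2 fold change of the nuclear members was -0.36, beside 0.61 over all genes, and it stayed negative under the scalings tried, between -0.29 and -0.59. The lower members belonged to complexes I (Ndufa5, Ndufb10), III (Uqcr11, Uqcrh), IV (Cox5b, Cox7a2, Cox8a) and V (Atp5j, Atp5k).

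Ndufa5 separated the groups in every cell. It had 0, 98.3 and 193 CPM in OHC-like cells and 236, 525 and 771 CPM in WT_P30 OHCs, and fell by 2.22 on the log2 scale (SE 0.47, edgeR adjusted p = 0.000137). Of all genes tested 0.306% were apart in this direction. Its levels in nascent HCs (68.9, 106 and 173 CPM) and in failing SCs (17.6, 101 and 424 CPM) were close to those in WT_P60 SCs.

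Cox8a had 0, 559 and 1064 CPM in OHC-like cells, and fell by 1.41 against WT_P30 OHCs (SE 0.42, edgeR adjusted p = 0.00802). Uqcrh, the hinge protein of complex III, had 0.223, 133 and 246 CPM against 184, 336 and 818 CPM and fell by 1.51 (SE 0.43, edgeR adjusted p = 0.00492). Atp5j, the coupling factor 6 of complex V, had 110, 262 and 464 CPM against 355, 749 and 1266 CPM and fell by 1.48 (SE 0.31, edgeR adjusted p = 0.000111). Its exons overlap Gabpa on the other strand. In a fit of these 2 groups alone 4 members were called lower, and Cox8a, Cox7a2 and Uqcrh were then not called (adjusted p = 0.0849, 0.131 and 0.0778).

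The higher members were Atp5a1, Atp5d and Cox8b. Atp5a1, the alpha subunit of complex V, had 395, 1131 and 1734 CPM in OHC-like cells against 171, 632 and 1118 CPM, a log2 fold change of 0.80 ± 0.26 (edgeR adjusted p = 0.0162), and the value was -0.02 with the number of genes detected as a covariate. Atp5d was not called without OHC-like cell 4 (0.84, adjusted p = 0.0696), and Cox8b not without OHC-like cell 2 (4.63, adjusted p = 0.0767). None of the 3 was called in the fit of these 2 groups alone.

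Between OHC-like cells and failing SCs most of the calls were mitochondrial members. OHC-like cells had 5 of 11 higher than failing SCs (mt-Nd1, mt-Nd2, mt-Nd4, mt-Nd5 and mt-Nd6, all of complex I), with log2 fold changes of 1.36 to 1.89, and 1 of 88 nuclear members higher (Ndufa8, 1.39 ± 0.38, edgeR adjusted p = 0.0137) and 0 lower. Over all genes tested 3.52% were higher and 1.55% lower. Ndufa8 was not called with DESeq2 size factors (edgeR adjusted p = 0.054), in the fit of the 2 groups alone (0.265), with the number of genes detected as a covariate (0.0951) or with the library run as a covariate (0.62). mt-Nd4 had 1528, 5792 and 39709 CPM in OHC-like cells and 0.876, 1620 and 12465 CPM in failing SCs (1.89 ± 0.42, edgeR adjusted p = 0.0016), so the ranges overlapped widely. Without OHC-like cell 4 only mt-Nd4 was called among these 5, and with the library run as a covariate none was called (log2 fold changes 0.56 to 0.96, adjusted p = 1.0). For mt-Cytb and mt-Co1 the differences were 0.77 ± 0.43 and 0.34 ± 0.43 and were not called. With OHC-like cell 4 kept and the nuclear copies added, mt-Co3 (2.35 ± 0.57, edgeR adjusted p = 0.00419), mt-Atp6 (2.58 ± 0.71, 0.0138) and mt-Nd3 (1.89 ± 0.59, 0.0431) were called as well. Counted in this way, the calls were not of complex I alone.

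OHC-like cells and nascent HCs were not told apart by any member. By edgeR 0 of 88 nuclear and 0 of 11 mitochondrial members were called, 0 and 2 had an unadjusted p under 0.05, and DESeq2 called 0 and 0, where 0.708% of all genes tested were called higher and 0.21% lower. The log2 fold change of all 11 mitochondrial members was positive, with a median of 0.66 (0.23 without OHC-like cell 4). For mt-Nd6, the furthest, it was 0.94 ± 0.46. A difference of this size is within what these 11 and 16 cells can leave uncalled.

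Few members were left at a stricter cutoff, an edgeR adjusted p under 0.001 with more than a 4-fold change. The study took these thresholds with DESeq2 and did not state for them whether p was adjusted. The cutoff as used here is called the rule of the study below. Of the nuclear members 1 was higher than in WT_P60 SCs in WT_P30 OHCs (Ndufa5, where 4.96% of all genes tested were higher), 1 in OHC-like cells (5.77%), 1 in nascent HCs (6.31%) and 0 in failing SCs (3.38%), and in OHC-like cells against WT_P30 OHCs 1 was lower (Ndufa5, 0.577%). Of the 11 mitochondrial members 8, 6, 2 and 1 passed over WT_P60 SCs in the same order of groups. The 1 in failing SCs was mt-Nd3. With its nuclear copy added, the log2 fold change of mt-Nd3 over SCs was 1.76, 1.89, 1.18 and 0.00 in these groups, each below 4-fold. The nuclear gene passing in OHC-like cells and nascent HCs was Cox8b. At an adjusted p under 0.05, 57 of the 99 tested members were called in none of the 7 comparisons.

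Among the nuclear members alone, levels per length put the same genes in the first 2 places in 4 of the 5 groups. Of these members Cox8a and Cox6a1 had the highest and second highest median TPM in WT_P30 OHCs (5687 and 2459), WT_P60 SCs (1976 and 1334), OHC-like cells (1915 and 1399) and nascent HCs (1845 and 1440). In failing SCs Cox8a (2024) was followed by Uqcr11 (1176) and Cox6a1 (1131), whose ranges overlapped almost fully. Atp5b stood among the first 3 in OHC-like cells (1068) and nascent HCs (1035). The ranges of Cox6a1 and its neighbours overlapped in each group, so their order is not fixed.

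Other genes that serve the same pathway were taken as lists with earlier results known. Of 8 genes for cytochrome c and carriers of the inner and outer membrane, 3 were higher in WT_P30 OHCs than in WT_P60 SCs, beside 8.92% of all genes tested. They were Cycs, the mobile electron carrier (31.4, 324 and 890 CPM against 40.9, 116 and 179 CPM, log2 fold change 1.62 ± 0.46, edgeR adjusted p = 0.00368), Slc25a3, the phosphate carrier, and Cyc1, the cytochrome c1 of complex III whose symbol the rule did not cover. In nascent HCs Slc25a3 was higher than in SCs (1.00 ± 0.27, edgeR adjusted p = 0.00499), and none of the 8 was called in OHC-like cells or failing SCs. Atpif1, the inhibitor of ATP hydrolysis by complex V, was the 1 gene of 8 for assembly of complexes II and V that was called over SCs, and it rose in all 4 other groups. Its log2 fold change was 1.99 ± 0.45 in WT_P30 OHCs and 1.92 ± 0.49 in OHC-like cells, and the edgeR adjusted p over the 4 groups lay between 0.000281 and 0.0122. These 4 comparisons share the SCs. Of 19 tested genes for assembly of complexes III and IV, Uqcc2 was higher in WT_P30 OHCs (1.68 ± 0.50, edgeR adjusted p = 0.00558) and in OHC-like cells (1.50 ± 0.53, 0.0474), beside 8.92% and 10.2% of all genes. Cox20 was called lower in nascent HCs (0 of 16 cells) than in SCs (5 of 16 cells, up to 2.61 CPM) and higher in OHC-like cells (2 of 11 cells, up to 3.02 CPM, edgeR adjusted p = 0.0188) than in nascent HCs, beside 3.42% and 0.708% of all genes.

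Of 13 tested regulators of mitochondrial gene expression, among them Nrf1, Gabpa, Esrra, Tfam and Polrmt, 0 were called higher and 1 lower in WT_P30 OHCs than in WT_P60 SCs, and 1 was higher in OHC-like cells than in SCs, beside 16.1% of all genes lower and 10.2% higher in these comparisons. Both calls were Pprc1, seen in 2 of 11 OHC-like cells, 1 of 16 SCs and 0 of 17 OHCs. Over WT_P30 OHCs, where 16.7% of all genes were higher, Pprc1 and Twnk, the helicase of mitochondrial DNA, were called higher in OHC-like cells. Twnk was seen in 8 of 11 OHC-like cells and 1 of 17 OHCs (log2 fold change 5.07 ± 1.79, edgeR adjusted p = 0.0332). Of the 19 genes of pyruvate entry and the citric acid cycle, only Mpc1 was called in any comparison. Of all genes tested, 16.1% were lower in WT_P30 OHCs than in SCs. Over SCs 10.2% were higher in OHC-like cells, 10.4% in nascent HCs and 7.54% in failing SCs. Mpc1 encodes a subunit of the mitochondrial pyruvate carrier. It had 0, 10.3 and 45.7 CPM in WT_P30 OHCs and 9.05, 25.4 and 80.9 CPM in WT_P60 SCs, and fell by 1.52 on the log2 scale (SE 0.55, edgeR adjusted p = 0.0327). In the induced cells it was far higher, at 110, 290 and 577 CPM in OHC-like cells (log2 fold change over SCs 3.21 ± 0.63, edgeR adjusted p = 7.19e-05), 63.4, 355 and 750 CPM in nascent HCs (3.46 ± 0.61, 1.03e-05) and 0, 73.9 and 556 CPM in failing SCs (1.98 ± 0.58, 0.0128). No OHC-like cell lay in the range of either wild-type group. Among all genes tested, 0.83% were apart in this direction from SCs and 82 of 11443 from WT_P30 OHCs.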

How the data were processed

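Read counts per gene of 75 single cells were analysed as deposited. Per the labels and the study's methods, the authors trimmed Smart-Seq reads (Trimmomatic 0.39, FastQC 0.11.9), aligned them to the mouse genome mm10 (HISAT2 2.1.0) and made the count of reads per gene with HTSeq 0.10.0, while StringTie 1.3.5 gave TPM. No molecular identifiers were used, so a count is a read. The strand setting, the annotation release and the handling of reads with several matches are not given in the sources used here. A transgene row (WPRE, 0.0254% of counts) and 0 sample columns were left out.

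One edgeR 4.0.16 model (R 4.3.3) over the 5 groups with TMM scaling and filterByExpr (minimum count 10) gave quasi-likelihood F-tests, two-sided, adjusted by Benjamini-Hochberg over the 11443 genes tested. An SE is the absolute log2 fold change divided by the square root of F. Exon overlaps and lengths came from GENCODE M21 (GRCm38), and repeated sequence was sought as shared 75-base windows. TPM given here used exon lengths. Totals of 4264780 to 22934062 counts set the precision, and a bound against a group without reads used 3 counts per library.

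Members and lists were chosen with earlier results of these data known. The genes named were the 13 mitochondrial members, the Sdh genes, the isoform sets of complex IV and of subunit c, and, in each comparison, the called nuclear member with the smallest p in each direction per complex and the 3 with the largest fold. Others were named after their values were seen. Alternatives were DESeq2 1.42.0, other scalings, no filter, fits of 2 groups, covariates, a replicate block, thinning to 4264780 counts (seed 11) and leaving out cells. Replicate numbers do not pair cells: over 137 same-numbered pairs the median correlation of deviations was -0.0, against -0.001 for other numbers, and no 2 cells held identical counts.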

Additional observations from a re-analysis of the deposited data

How the results depend on the processing

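Directions of the named genes held under the alternatives with 2 exceptions (745 comparisons on the same side of the threshold, 69 no longer called), and 229 counts stayed within 1.5 times while 73 did not. One was Atp5a1 in OHC-like cells against WT_P30 OHCs, -0.02 with the number of genes detected as a covariate, and the other was mt-Nd3 in failing SCs, which had no direction left with nuclear copies (0.00). The counts of nuclear (higher, lower) and mitochondrial members that changed were as follows, and the cause was not tested. For WT_P30 OHCs over WT_P60 SCs (26, 1 and 11), the lower count was 4 with DESeq2, 2 with DESeq2 size factors, the replicate block or without 3 cells, 3 without a filter, 0 in the fit of 2 groups or with the covariate, and the rule of the study gave 1 higher and 0 lower. For OHC-like cells over SCs (4, 0 and 10), DESeq2 gave 3 lower, no filter 7 higher and 1 lower, and the rule of the study 1 higher and 6 mitochondrial. For nascent HCs (3, 1 and 9), the lower count was 4 with DESeq2, 3 with its size factors, and 2 with library size, no filter, 2 groups, the covariate, thinning or without nascent HC replicate 13, the higher count was 5 without a filter, with 2 groups or without the 3 cells, and the rule of the study gave 1, 0 and 2. For failing SCs (1, 0 and 6), DESeq2 gave 3 and 3, its size factors 2 and 1, no filter 2 and 1, 2 groups 0 higher and 2 mitochondrial, the covariate 0 higher, the replicate block 0, 1 and 2, leaving out the 3 cells 2, 1 and 1, and the rule of the study 0 higher and 1 mitochondrial.

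For OHC-like cells against WT_P30 OHCs (3, 9 and 0), DESeq2 gave 22 lower and 1 mitochondrial, library size 1 and 18, no filter 5 higher, 2 groups 0 and 4, the covariate 1 higher and 2 mitochondrial, the replicate block 5 higher and the rule of the study 0 and 1. For OHC-like cells against failing SCs (1, 0 and 5), DESeq2 gave 4 and 1, no filter 4 higher, 2 groups 0 higher and 0 mitochondrial, the covariate 0 higher, the replicate block or leaving out the 3 cells 2 higher, thinning 3 mitochondrial, leaving out OHC-like replicate 4 1 mitochondrial, the library run 0 higher and 0 mitochondrial, the nuclear copies 8 mitochondrial and the rule of the study 0 higher and 0 mitochondrial. Against nascent HCs no filter gave 1 higher. Scaling on nuclear genes alone moved no count by more than 1.5 times. The replicate numbers share no source, and 5 of 74 cells correlated best with a cell of their own number. The settings without the 3 cells, without nascent HC replicate 13, without OHC-like replicate 2 and with nuclear copies were chosen after the data had been seen. Leaving out each cell in turn was not done, since the groups hold 11 to 17 cells. The calls of Cox8b and Cox7a1 rest on few cells.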

Other observations

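Genes for other routes to ATP also differed between the groups. Of 16 tested genes of glycolysis and lactate, 3 were higher and 5 lower in WT_P30 OHCs than in WT_P60 SCs by edgeR at an adjusted p under 0.05, beside 8.92% of all genes higher and 16.1% lower. Hk2, a hexokinase, had 0 counts in each of 17 OHCs and 3.51, 229 and 395 CPM (lowest, median and highest) in SCs, at least 461-fold lower. Gapdh fell by 0.86 on the log2 scale (SE 0.26, adjusted p = 0.00806), from 980, 1480 and 1853 CPM in SCs to 345, 769 and 1377 CPM. Ldhb, the heart form of lactate dehydrogenase, was higher in OHCs (47.9, 342 and 880 CPM against 0, 32.9 and 457 CPM, log2 fold change 2.14 ± 0.68). It was higher still in OHC-like cells (573, 1867 and 6379 CPM) and nascent HCs (544, 1960 and 4373 CPM), where every cell lay above every SC. Among all genes tested, 0.83% and 0.586% were apart in this direction. In failing SCs Ldhb had 94.2, 1828 and 4918 CPM (edgeR log2 fold change 4.72 ± 0.77 over SCs, adjusted p = 4.15e-06). Ldha, the muscle form, was near 0 in the SCs and was detected in 8 of 17 OHCs, with up to 681 CPM. It was also detected in 7 of 11 OHC-like cells, 10 of 16 nascent HCs and 11 of 15 failing SCs. Their means were at least 209-fold, 287-fold and 452-fold higher than in SCs, or 115-fold, 214-fold and 363-fold without the highest cell. It was at least 195-fold higher in OHCs, or 105-fold without the highest cell, a setting chosen after the data had been seen, and processed copies in the genome could share its reads, which was not examined.

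Ckmt1, the mitochondrial creatine kinase, had 0 counts in each of 16 WT_P60 SCs. It was detected in 16 of 17 WT_P30 OHCs (median 282 CPM, mean at least 670-fold higher), 9 of 11 OHC-like cells (median 222 CPM, at least 450-fold), 15 of 16 nascent HCs (median 200 CPM, at least 497-fold) and 3 of 15 failing SCs (at least 24.0-fold, or 11.8-fold without the highest cell). Ckb, the cytosolic form, had 1796, 3670 and 7130 CPM in OHC-like cells, all above the WT_P30 OHCs (84.2, 332 and 1251 CPM), an edgeR log2 fold change of 3.38 ± 0.70 (adjusted p = 0.000122). Among all genes tested, 82 of 11443 were apart in this direction.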
